A study of Mus musculus with 15 samples.

Results

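Ribosome-protected fragments (RPFs), the stretches of mRNA that a ribosome shields from RNase, were counted on 10 genes of the microRNA pathway in mouse embryonic stem cells (mESCs). The genes were *Drosha*, *Dgcr8*, *Dicer1*, *Ago1*, *Ago2*, *Ago3*, *Tnrc6a*, *Tnrc6b*, *Tnrc6c* and *Lin28a*, 1 transcript each of 21727 in the count table, found by matching transcript identifiers to GENCODE M21. All 10 passed the filter on low counts, as did 10085 transcripts in all. The set was drawn up because *Tnrc6c* differed between the immunoprecipitates of the tagged lines, so its values in that contrast are given below as a description, and the question was whether *Tnrc6a* and *Tnrc6b* share the difference. The 15 libraries came from E14Tg2a.4 mESCs, a feeder-free line grown with leukemia inhibitory factor. In *Rps27-FLAG* cells (3 independently selected clones) and *Rps27l-FLAG* cells (3 clones) a 3xFLAG tag had been inserted homozygously by CRISPR at the end of the endogenous ribosomal protein gene, and 3 clones of a passage-matched wild-type (WT) line carried no tag. All cells were treated with cycloheximide before lysis and RNase digestion. Total RPFs were taken from all pelleted ribosomes of the 9 clones, and IP RPFs from ribosomes of the 6 tagged clones after anti-FLAG immunoprecipitation, which gives 5 groups of 3 libraries. An immunoprecipitation from untagged cells was not analysed here.

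MicroRNAs are cut from a hairpin transcript in the nucleus by the Microprocessor, made of the nuclease Drosha and its RNA-binding partner Dgcr8, and then trimmed to a short duplex in the cytoplasm by Dicer1. An Argonaute protein (Ago) holds one strand and pairs with target mRNAs, mostly through the seed at bases 2 to 8 of the microRNA. A Tnrc6 protein (GW182) binds the Argonaute through glycine-tryptophan repeats and recruits deadenylases, which shorten the poly(A) tail of the target. Lin28a is an RNA-binding protein of pluripotent cells that blocks maturation of the let-7 microRNAs.

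Library totals lay between 3972152 and 8064166 counts. All 10 listed mESC markers passed the filter in these libraries, with a summed level of 4223 to 5226 normalized CPM (counts scaled to a fixed library size, with TMM factors), against 35.3 to 48.3 for 15 markers of fibroblasts, endoderm, mesoderm and neural cells. Of these 15, 1 passed the filter, the fibroblast marker *Thy1* with a median of 13.0. The neural marker *Pax6* had a median of 11.4, and *Postn* and *Afp* had a median of 0. The mESC sum was 5052 to 5226 in the IP RPFs and 4223 to 4758 in the total RPFs, and its part in the IP results was not tested. In 4 of the 9 clones, namely replicate 1 of all 3 lines and replicate 2 of *Rps27l-FLAG*, the total RPFs held 1.95 to 3.08 normalized CPM of *Tet1*, against 417 to 431 in the other 5, and the first principal component of the total RPFs (51.2% of the variance) set these 4 clones apart. In the total RPFs, *Lin28a* lay at 109 to 125 normalized CPM in those 4 clones and at 116 to 156 in the other 5, and *Tnrc6a* at 56.0 to 69.9 and 44.9 to 58.2, so that these ranges overlapped. For *Lin28a* the overlap came from *Rps27l-FLAG* replicate 3 alone, at 116. *Tnrc6c* lay at 71.5 to 82.8 and 65.4 to 72.6, a narrow overlap, and *Tnrc6b* at 78.6 to 83.7 and 65.5 to 87.7. The part of this split of the clones in the results below was not tested beyond leaving out clones.

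Read per length of the counted coding sequence (CDS), the 10 genes spanned 76.9-fold in the total RPFs of WT cells, from *Lin28a* at the top to *Ago3* at the bottom. *Lin28a*, with a CDS of 627 nt, stood at 251 ± 28.1 normalized CPM per kb (SD, n = 3), at or above 92.7% of tested transcripts. *Ago2*, the Argonaute that can itself cleave a target, followed with 66.0 ± 3.48 normalized CPM per kb (SD, n = 3), and *Drosha* with 52.3 ± 4.75 (SD, n = 3). *Dgcr8* (27.5 ± 1.74, SD, n = 3) and *Dicer1* (27.4 ± 1.75, SD, n = 3) could not be ordered, since their clones overlapped, so that *Drosha* stood 1.90-fold above its partner *Dgcr8* on this scale. Next came *Tnrc6b* (14.2 ± 1.35, SD, n = 3), *Tnrc6c* (12.8 ± 0.0713, SD, n = 3), *Ago1* (12.7 ± 0.267, SD, n = 3), *Tnrc6a* (9.48 ± 0.407, SD, n = 3) and *Ago3* (3.26 ± 0.511, SD, n = 3). Of these neighbours only *Tnrc6c* and *Ago1* overlapped. *Tnrc6b* (lowest 12.9) and *Ago1* (highest 13.0), which are not neighbours, overlapped as well. RPFs follow both the amount of an mRNA and the ribosomes on each copy, which cannot be told apart here, and in bulk samples fewer cells with an mRNA and less of it per cell cannot be told apart either.

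**Figure D1:**
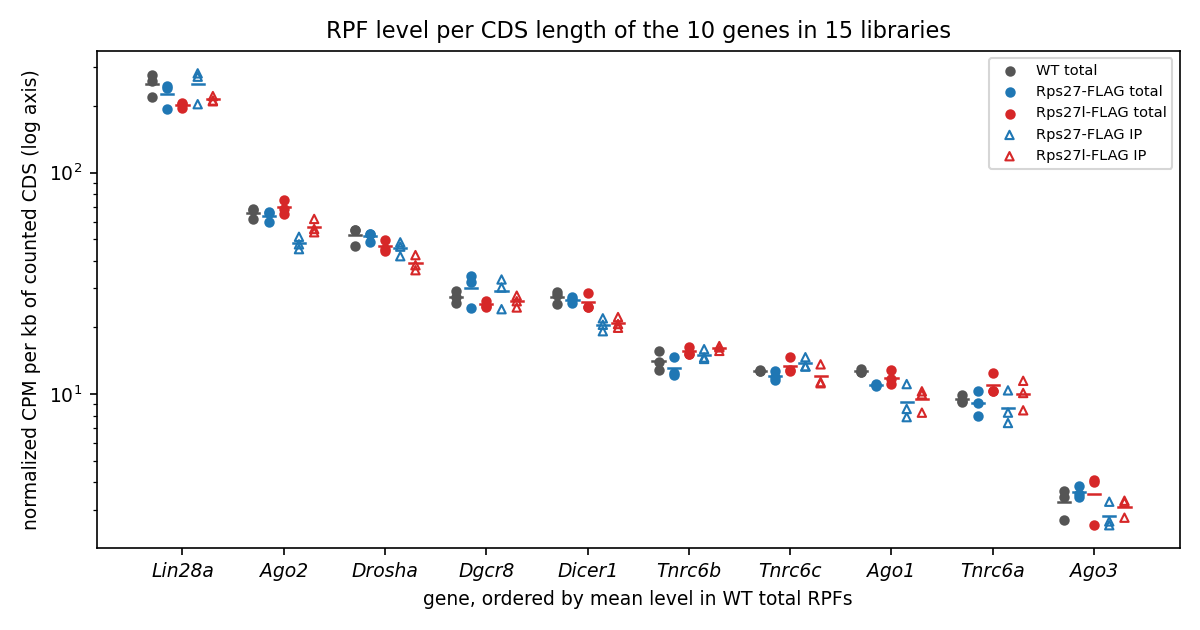
RPF level of the 10 genes in all 15 libraries, as normalized CPM per kb of counted CDS on a log axis, with a point per library and a bar at the mean of each group of 3. *Lin28a* lies highest and *Ago3* lowest in every group, and the *Ago2* and *Dicer1* points of both IP groups lie below those of the total RPFs of their line.

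The order was much the same in the other groups, with *Lin28a*, *Ago2* and *Drosha* as the top 3 and *Ago3* last in each. *Ago2* made up 80.5% ± 1.31 (SD, n = 3) of the summed level per kb of the 3 measured Argonautes in WT cells, *Ago1* 15.5% ± 0.939 (SD, n = 3) and *Ago3* 3.99% ± 0.641 (SD, n = 3). *Ago4* had 0 to 6 counts per library, failed the filter and is not part of that sum. Between the groups the mean share of *Ago2* stayed within 80.0% to 81.9%. *Ago3* rested on 28 to 82 counts per library, the fewest of the 10 genes. Fragments from stretches that 2 genes share are lost when only unique alignments are kept: *Ago1* and *Ago3*, which lie side by side on chromosome 4, have a run of 170 identical bases and share 143 windows of 28 nt, so their levels are uncertain to that extent. The *Tnrc6* paralogs share no window of 28 nt with each other, and their longest common run is 24 bases, between *Tnrc6a* and *Tnrc6c*.

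The 3 *Tnrc6* genes are alike in size and in what their CDS encodes. *Tnrc6a* (ENSMUST00000094053, GRCm38 chromosome 7 from 123124181 to 123195296, CDS of 5688 nt) has 24 coding exons. *Tnrc6b* (ENSMUST00000067689, chromosome 15 from 80711313 to 80941085, CDS of 5430 nt) has 23 and *Tnrc6c* (ENSMUST00000026658, chromosome 11 from 117654289 to 117763437, CDS of 5700 nt) has 21, all on the plus strand. Aligned in pairs, their CDS were identical at 56.2% (*Tnrc6a* and *Tnrc6b*), 58.2% (*Tnrc6a* and *Tnrc6c*) and 56.5% (*Tnrc6b* and *Tnrc6c*) of aligned bases, against 71.7% to 75.5% among *Ago1*, *Ago2* and *Ago3*. The GC content of the CDS differed, from 49.2% in *Tnrc6a* to 52.9% in *Tnrc6b* and 56.2% in *Tnrc6c*. Glycine and tryptophan codons that adjoin in frame, searched on the coding strand as GGNTGG and TGGGGN with overlapping pairs counted singly, number 46 in *Tnrc6a*, 39 in *Tnrc6c* and 38 in *Tnrc6b*. These are the highest 3 counts among the 10082 tested transcripts with a CDS, of which 54.8% have 0 and 5 have 20 or more. The windows of 120 bases within 1 exon that hold the most such pairs are shown because these repeats bind Argonaute, with the codon pairs in capitals. They lie on the plus strand of GRCm38 at chr7:123171629-123171748 in exon 6 (*Tnrc6a*, 6 pairs), chr15:80880333-80880452 in exon 8 (*Tnrc6b*, 5 pairs) and chr11:117723016-117723135 in exon 5 (*Tnrc6c*, 5 pairs):
Tnrc6a: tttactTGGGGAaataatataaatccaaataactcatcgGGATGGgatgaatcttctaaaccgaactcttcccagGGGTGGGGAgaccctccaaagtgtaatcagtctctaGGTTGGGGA
Tnrc6b: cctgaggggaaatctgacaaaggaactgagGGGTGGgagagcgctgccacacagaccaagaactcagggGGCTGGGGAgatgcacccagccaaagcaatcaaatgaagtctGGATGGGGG
Tnrc6c: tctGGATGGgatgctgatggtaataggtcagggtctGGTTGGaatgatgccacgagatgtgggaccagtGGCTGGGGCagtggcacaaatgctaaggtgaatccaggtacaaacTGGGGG

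The gene for Dicer1 carries in its own CDS matches to the microRNA family that Lin28a restrains. The mature let-7 sequences in the RefSeq table for GRCm38.p6 share 1 seed, shown in capitals for let-7g, which lies on the plus strand at chr9:106178846-106178867. The complement of that seed, CTACCTC, was searched on the coding strand. It occurs 4 times in the CDS of *Dicer1*, 1 time each in *Tnrc6c* and *Ago3*, and not in the CDS of the other 7 genes. Of the 10082 tested CDS, 15.0% hold at least 1 match and 10 hold 4 or more. The *Dicer1* matches with 11 bases on each side follow in CDS order, on the minus strand of chromosome 12, with the match in capitals. The first spans the junction of exons 16 and 17 (chr12:104706365-104706577 with the intron), the middle pair in exon 21 (chr12:104702794-104702822 and chr12:104702686-104702714) and the last in exon 24 (chr12:104694686-104694714). MicroRNAs were not measured, so these letters say nothing about whether the sites are used:
let-7g: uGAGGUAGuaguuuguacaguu
Dicer1 first: cctactgtgttCTACCTCttaatgttgtt
Dicer1 second: tgtacaaccaaCTACCTCatatcccattc
Dicer1 next: cgctaacacatCTACCTCagatggaagcc
Dicer1 last: gcgattttggaCTACCTCataaccaagca

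The first question of the design was which mRNAs are held by ribosomes with the tagged protein relative to all ribosomes of the same clones. In *Rps27-FLAG*, *Ago2* and *Dicer1* were lower in the IP RPFs than in the total RPFs by edgeR's quasi-likelihood test (adjusted p under 0.05 over 10085 transcripts). These are 2 of the 10 genes, where 5.34% of all transcripts were lower and 0.327% higher. In *Rps27l-FLAG*, 0 of the 10 passed, with 2.27% of all transcripts lower and 0.833% higher. There 4 of the 10 had an unadjusted p under 0.05, as did 17.4% of all transcripts. Voom with limma gave 0 of the 10 as well, and DESeq2 gave 0 of the 8 for which it set an adjusted p. IP and total RPFs with the same replicate number were made from 1 clone, and with the clone as a block the test gave more calls. In *Rps27-FLAG*, 7 of the 10 genes then passed: *Tnrc6b*, *Tnrc6c* and *Lin28a* were higher (18.3% of all transcripts) and *Ago1*, *Ago2*, *Dicer1* and *Drosha* lower (22.9%). In *Rps27l-FLAG*, 5 passed, all lower (19.0% of all transcripts): *Tnrc6c*, *Ago1*, *Ago2*, *Dicer1* and *Drosha*. In either direction 31.0% of all transcripts passed there.

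**Figure D2:**
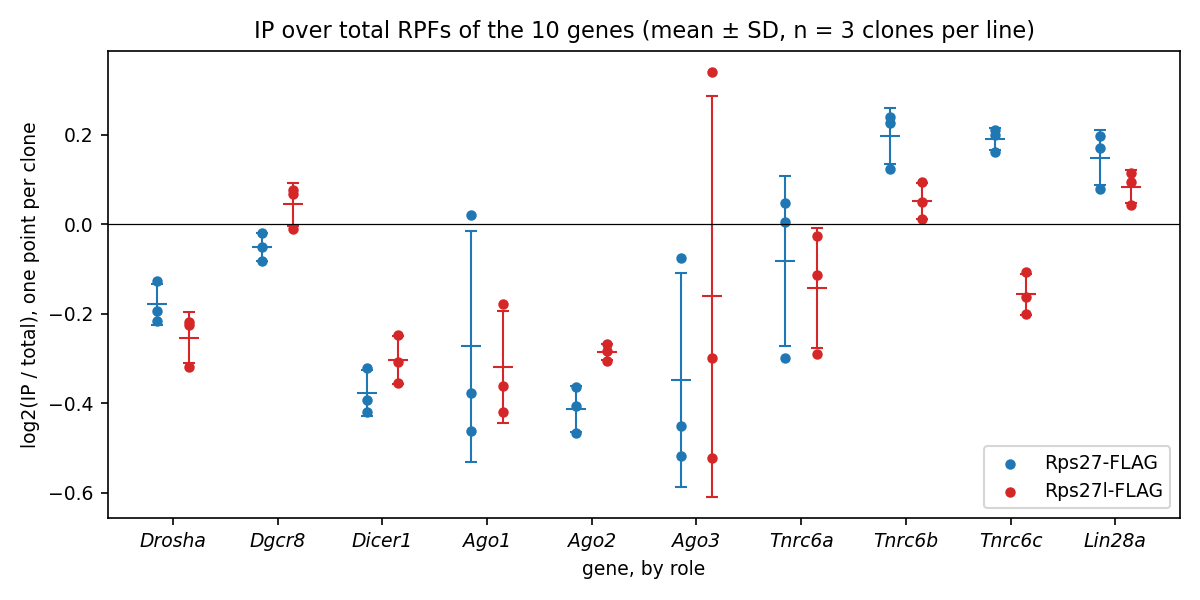
log2 ratio of IP to total RPFs for each clone (points) with mean and SD over the 3 clones of each tagged line, for the 10 genes ordered by role. *Tnrc6c* is the gene whose clones lie above 0 in *Rps27-FLAG* and below 0 in *Rps27l-FLAG*, while *Ago2*, *Dicer1* and *Drosha* lie below 0 in all 6 clones.

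Of the Microprocessor genes, *Drosha* was lower in the IP RPFs of all 6 clones. Its log2 fold change (IP over total RPFs) was -0.18 (standard error 0.0737) in *Rps27-FLAG*, from 209 ± 10.0 to 185 ± 13.5 normalized CPM (SD, n = 3), and -0.25 (0.0800) in *Rps27l-FLAG*, from 188 ± 11.2 to 158 ± 12.8 (SD, n = 3). With the clone as a block the adjusted p was 1.95e-06 and 8.66e-08. *Dgcr8* showed log2 fold changes of -0.06 (standard error 0.153) and 0.05 (0.0812), neither of which passed with or without the block.

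*Dicer1*, which trims the hairpins, fell from 151 ± 5.10 to 116 ± 7.81 normalized CPM (SD, n = 3) in *Rps27-FLAG*. The total RPFs of replicates 1 to 3 held 145, 155 and 153 normalized CPM and the IP RPFs 109, 124 and 116, so that the groups did not overlap. The log2 fold change was -0.38 (standard error 0.0691, adjusted p = 0.0201 by edgeR). In *Rps27l-FLAG* the total RPFs held 139, 161 and 140 normalized CPM and the IP RPFs 117, 126 and 113, again without overlap, and the fitted log2 fold change was -0.31 (standard error 0.0846). That change passed with the clone as a block only (adjusted p = 2.76e-08).

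Among the Argonautes, *Ago2* had the lowest ratio in *Rps27-FLAG*. Its total RPFs held 166, 151 and 165 normalized CPM in replicates 1 to 3 and its IP RPFs 129, 114 and 119, lower by edgeR with an adjusted p of 0.0176 and a log2 fold change of -0.41 (standard error 0.0730). In *Rps27l-FLAG* they held 189, 173 and 163 against 156, 140 and 135, which is -0.29 on the log2 scale (standard error 0.0832) and passed with the block only (adjusted p = 9.62e-09). In neither line did the IP and total libraries overlap. The log2 fold changes of *Ago1* were -0.27 (standard error 0.140) and -0.31 (0.127) in *Rps27-FLAG* and *Rps27l-FLAG*, and both passed with the block only (adjusted p = 0.00918 and 0.00802). *Ago3* had -0.34 (standard error 0.175) and -0.20 (0.222) and did not pass in either line under either fit. Its clone ratios ranged from -0.52 to 0.34 on the log2 scale in *Rps27l-FLAG*, the widest spread of the 10 genes.

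The *Tnrc6* paralogs, whose products link Argonaute to deadenylation, differed from each other. In *Rps27-FLAG* the log2 fold change was 0.19 for *Tnrc6b* (standard error 0.0908) and also 0.19 for *Tnrc6c* (standard error 0.0749), against -0.07 for *Tnrc6a* (standard error 0.146). Neither *Tnrc6b* nor *Tnrc6c* passed without the clone as a block, and with it both did (adjusted p = 0.00223 for *Tnrc6b* and 0.00180 for *Tnrc6c*), while *Tnrc6a* did not (adjusted p = 0.516). In *Rps27l-FLAG* the values were 0.05 for *Tnrc6b* (standard error 0.0699), -0.15 for *Tnrc6c* (0.103) and -0.13 for *Tnrc6a* (0.128), and of these *Tnrc6c* passed, with the block only (adjusted p = 0.0346). The tests of *Tnrc6c* within each line use the libraries on which it was selected and are no support for that selection.

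*Lin28a* was higher in the IP RPFs of all 6 clones, by 0.15 on the log2 scale in *Rps27-FLAG* (standard error 0.139) and by 0.08 in *Rps27l-FLAG* (standard error 0.0659). The first passed with the clone as a block (adjusted p = 0.00106) and, without a block, when replicate 1 was left out (0.18, adjusted p = 0.0478), where 6.71% of all transcripts were higher. The second did not pass with the block (adjusted p = 0.139). Leaving out replicate 2 or replicate 3 of *Rps27-FLAG* took the number that passed without a block to 0, both of the 10 genes and of all transcripts, while *Ago2* stood at -0.41 and -0.38 and *Dicer1* at -0.41 and -0.37 on the log2 scale.

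The second question was whether the immunoprecipitation shifted mRNAs differently in the 2 tagged lines. *Tnrc6c* was selected on this contrast, so all values in it describe and carry no test. Its total RPFs held 71.5, 65.4 and 67.3 normalized CPM in replicates 1 to 3 of *Rps27-FLAG* and its IP RPFs 82.7, 75.04 and 75.3, so that the IP libraries lay above all totals. In *Rps27l-FLAG* the total RPFs held 82.8, 71.5 and 72.6 and the IP RPFs 76.8, 63.9 and 63.1, lower in each clone although the libraries of the 2 kinds overlapped. The clone ratios of *Tnrc6c* were 0.21, 0.20 and 0.16 in *Rps27-FLAG* and -0.11, -0.16 and -0.20 in *Rps27l-FLAG* on the log2 scale. The fitted difference, *Rps27l-FLAG* minus *Rps27-FLAG*, was -0.34 (standard error 0.0776). By size it is the fifth of the 10 transcripts that were lower in *Rps27l-FLAG* by edgeR with an absolute log2 fold change over 0.25, which are 0.0992% of those tested. *Tnrc6c* is the 1 gene of the 10 among them, which its selection fixes.

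**Figure D3:**
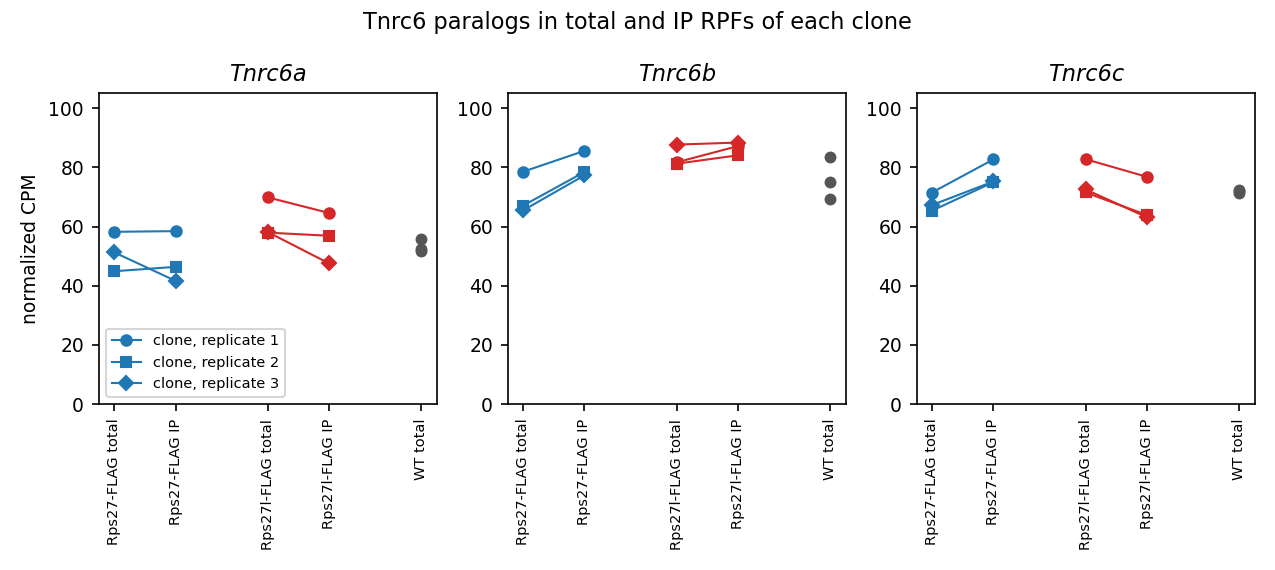
Normalized CPM of the *Tnrc6* paralogs in each library, with lines joining the total and IP RPFs of a clone and single points for the total RPFs of WT clones. The IP point of *Tnrc6c* lies above the total in the 3 *Rps27-FLAG* clones and below it in the 3 *Rps27l-FLAG* clones, that of *Tnrc6b* lies above in all 6 clones, and *Tnrc6a* shows no common direction in *Rps27-FLAG*.

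*Tnrc6b* and *Tnrc6a* had differences of the same sign and smaller size. The fitted difference of *Tnrc6b* was -0.13 (standard error 0.0740), with clone ratios of 0.12, 0.23 and 0.24 in *Rps27-FLAG* and 0.09, 0.05 and 0.01 in *Rps27l-FLAG*, which do not overlap. The fitted difference of *Tnrc6a* was -0.07 (standard error 0.0921), and its clone ratios, 0.01, 0.05 and -0.30 against -0.11, -0.03 and -0.29, overlapped. When 1 clone was left out, that difference of *Tnrc6a* ran from -0.02 (without *Rps27l-FLAG* replicate 3) to -0.15 (without *Rps27-FLAG* replicate 3), and that of *Tnrc6b* from -0.11 to -0.18. Within a clone, the ratio of *Tnrc6c* stood 0.21 ± 0.00587 (SD, n = 3) below that of *Tnrc6b* on the log2 scale in *Rps27l-FLAG*, and 0.01 ± 0.0839 (SD, n = 3) below it in *Rps27-FLAG*. Against *Tnrc6a*, *Tnrc6c* stood 0.27 ± 0.166 (SD, n = 3) higher in *Rps27-FLAG*, while in *Rps27l-FLAG* it stood 0.01 ± 0.114 (SD, n = 3) lower. As a share of the summed level per kb of the 3 paralogs, *Tnrc6c* was 36.8% ± 1.097 (SD, n = 3) of the IP RPFs in *Rps27-FLAG*, where those of *Rps27l-FLAG* had 31.5% ± 1.28 (SD, n = 3), against 35.2% ± 1.36 and 33.5% ± 1.09 (SD, n = 3 each) of the total RPFs.

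The other 7 genes had fitted differences between -0.08 (*Drosha*, standard error 0.0513) and 0.12 (*Ago2*, standard error 0.0559). *Dicer1* had 0.08 (standard error 0.0594), *Dgcr8* 0.10 (0.0841), *Ago3* 0.10 (0.242), *Ago1* -0.02 (0.137) and *Lin28a* -0.06 (0.0601). With 1 clone left out, *Ago1* ran from -0.11 to 0.11 and *Ago3* from -0.08 to 0.27, so their signs were not settled. The clone ratios of the 2 lines did not overlap for *Tnrc6b*, *Tnrc6c*, *Ago2*, *Drosha* and *Dgcr8*, although only for *Tnrc6c* did the lines lie on opposite sides of 0 in all 6 clones. How many of all tested transcripts separate or change sign in this way was not counted, so these are no traits of the genes. For *Tnrc6c* the separation goes with its selection. Without the 4 clones with low *Tet1*, which leaves 2 clones of *Rps27-FLAG* and 1 of *Rps27l-FLAG*, the difference of *Tnrc6c* was -0.38 (standard error 0.131), that of *Tnrc6b* -0.22 (0.119) and that of *Tnrc6a* -0.18 (0.154).

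Long coding sequences were lower in the IP RPFs of both lines, and the *Tnrc6* genes are among the long ones, so each gene was set beside tested transcripts whose CDS length lay within 10% of its own. The 203 transcripts near *Tnrc6c* had a median log2 fold change (IP over total RPFs) of -0.34 in *Rps27-FLAG*, where 2 of them lay above its 0.19, and of -0.29 in *Rps27l-FLAG*, where 62 lay above its -0.15. Of the 209 near *Tnrc6b*, 1 lay above it in *Rps27-FLAG* and 9 in *Rps27l-FLAG*. Of the 206 near *Tnrc6a*, 49 and 54 lay above it. *Dicer1* has a CDS of 5718 nt, close to that of *Tnrc6c*, and its log2 fold changes of -0.38 and -0.31 lay near the medians of -0.34 and -0.29 of the 199 transcripts of like length. *Ago2* lay below 674 of 777 such transcripts in *Rps27-FLAG* and 622 in *Rps27l-FLAG*, and *Lin28a*, the shortest of the 10, near the middle of 592 in both.

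**Figure D4:**
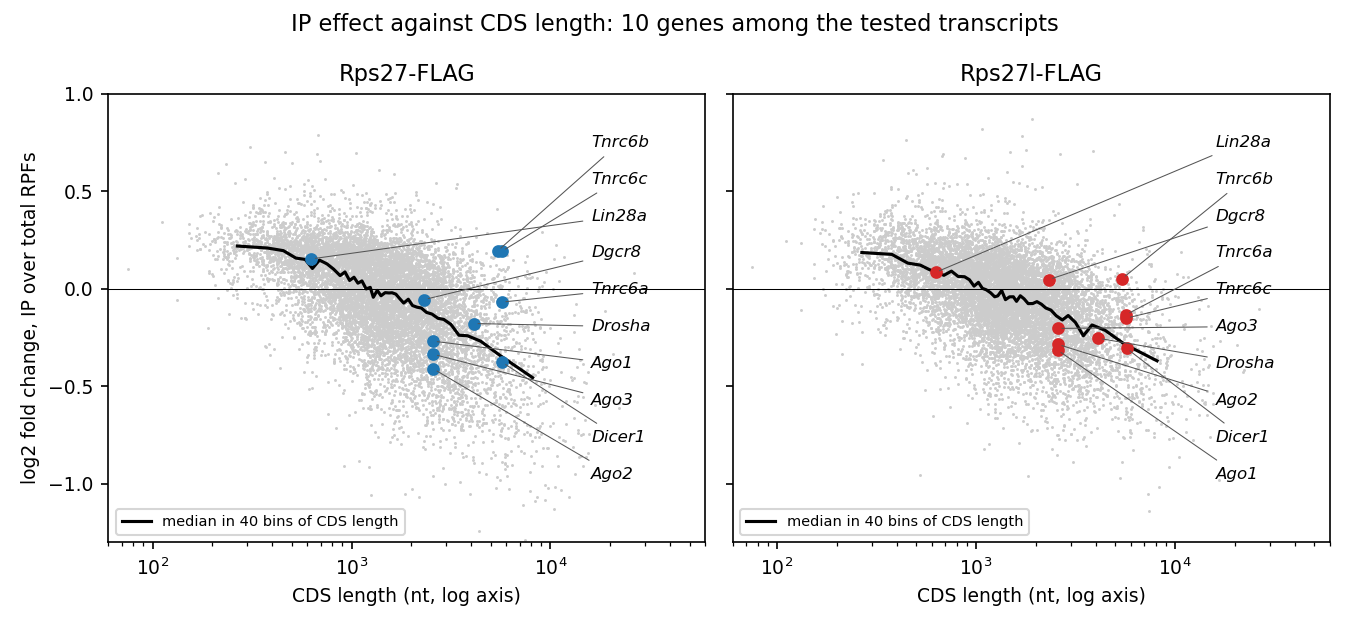
log2 fold change of IP over total RPFs against CDS length (log axis) in each tagged line, with tested transcripts in grey, their median in bins of length as a line, and the 10 genes as labelled points. *Tnrc6b* and *Tnrc6c* lie far above the line in *Rps27-FLAG*, *Tnrc6b* does in *Rps27l-FLAG*, *Dicer1* and *Lin28a* lie on it in both, and *Ago2* lies below it in both.

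With the length trend of each library removed and the clone as a block, the IP effects of several genes turned. In *Rps27-FLAG*, *Tnrc6a* (0.29), *Tnrc6b* (0.52), *Tnrc6c* (0.54) and *Drosha* (0.09) were then higher in the IP RPFs, where 18.4% of all transcripts were, and *Ago2* (-0.25) was lower, where 13.0% were. In *Rps27l-FLAG*, *Tnrc6b* (0.33) and *Dgcr8* (0.16) were higher, where 14.7% of all transcripts were, and *Ago2* (-0.15) was lower, where 8.05% were. *Dicer1* (-0.03 and -0.02) and *Ago1* (-0.13 and -0.17) no longer passed in either line, nor did *Lin28a* in *Rps27-FLAG* (0.04) or *Drosha* in *Rps27l-FLAG* (-0.03). Without the block, *Tnrc6c* in *Rps27-FLAG* (0.54, adjusted p = 0.0435 by edgeR) was the 1 gene of the 10 that passed once length was removed. In that fit 9 of 10085 transcripts were higher and 18 lower. The fits of *Tnrc6c* given here use the libraries on which it was selected and are no support for that selection. *Tnrc6c* was at 0.13 in *Rps27l-FLAG* (adjusted p = 0.0955 by edgeR), so its opposite signs in the 2 lines are not kept once length is removed, while its difference between the lines was -0.41 (standard error 0.0776). With length removed, the difference of *Tnrc6b* was -0.20 (standard error 0.0739) and that of *Tnrc6a* -0.14 (0.0912). Without that removal, 193 of the 209 transcripts of like length had a difference above that of *Tnrc6b*, and 163 of 206 above that of *Tnrc6a*. *Ago2* is the 1 gene of the 10 that passed in the same direction in both lines with the block, with and without the length trend. With the block alone 22.9% of all transcripts were lower in *Rps27-FLAG* and 19.0% in *Rps27l-FLAG*. How many of all transcripts pass these fits together was not counted, so this does not set *Ago2* apart from other transcripts.

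Total RPFs were compared among the lines to see whether the tags changed what all ribosomes translate. By edgeR 0 of the 10 genes passed in any of the 3 comparisons, and 0% of all transcripts did. At an unadjusted p under 0.05 there was 1 of the 10 for each tagged line against WT (2.92% of all transcripts for *Rps27-FLAG* and 5.69% for *Rps27l-FLAG*) and 2 between the tagged lines (5.75%), and voom with limma and DESeq2 also called 0. Between *Rps27-FLAG* and WT the largest difference among the 10 was that of *Ago1*, with 27.97, 27.3 and 27.5 normalized CPM in *Rps27-FLAG* and 31.5, 31.6 and 32.7 in WT. The clones did not overlap, and the log2 fold change was -0.21 (standard error 0.0930, adjusted p = 0.999). Between *Rps27l-FLAG* and *Rps27-FLAG* it was that of *Tnrc6a*, with 69.9, 58.0 and 58.2 normalized CPM against 58.2, 44.9 and 51.3. Those clones overlapped, and the log2 fold change was 0.27 (standard error 0.112, adjusted p = 0.803).

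*Lin28a*, the let-7 inhibitor, differed most between *Rps27l-FLAG* and WT. Its total RPFs held 111, 116 and 116 normalized CPM in *Rps27l-FLAG* against 125, 156 and 146 in WT, without overlap, and 109, 139 and 136 in *Rps27-FLAG*. On the log2 scale *Rps27l-FLAG* differed from WT by -0.31 (standard error 0.105, adjusted p = 0.821). Per the methods of the study, RPFs of the same replicate were pooled before rRNA depletion. Replicate 1 of all 3 lines also had low *Tet1*, so pool and *Tet1* level in part go together. With the replicate number as a block the adjusted p was 0.0460 by edgeR at the same log2 fold change of -0.31 (standard error 0.0685), where 1.43% of all transcripts passed. Without the 4 clones with low *Tet1* it was -0.38 (standard error 0.0814, adjusted p = 0.0151), from 1 *Rps27l-FLAG* clone against 2 WT clones, and *Drosha* passed as well (-0.31, standard error 0.0735, adjusted p = 0.0268), as did 4.05% of all transcripts. In that fit *Tnrc6b* was higher in *Rps27l-FLAG* than in *Rps27-FLAG* (0.40, standard error 0.0964, adjusted p = 0.0325), where 2.91% of all transcripts passed. The lone *Rps27l-FLAG* library is there assumed to vary like the others.

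Around the 10 genes, 64 others of the pathway were listed, from nuclear processing and export to target decay, and 63 of them were tested. Without a block, the IP RPFs of *Rps27-FLAG* had 1 at a higher and 5 at a lower level, and those of *Rps27l-FLAG* 3 and 3. Of all transcripts, 0.327% were higher and 5.34% lower in the first, and 0.833% and 2.27% in the second. The median log2 fold change of the 63 was 0.03 and 0.01, beside -0.01 and -0.03 over all tested transcripts. In *Rps27-FLAG* the largest 5 were *Zswim8* (-0.59), a ubiquitin ligase subunit that acts in target-directed microRNA decay, *Gemin4* (-0.50), the deadenylase subunit *Pan2* (-0.49), *Cnot1* (-0.39), the scaffold of the CCR4-NOT deadenylase, and the exporter *Xpo5* (-0.31). In *Rps27l-FLAG* they were *Cnot1* (-0.40), *Gemin4* (-0.37), *Hnrnpa2b1* (0.31), *Trim71* (-0.31), a let-7 target of stem cells, and *Ran* (0.26), the GTPase of nuclear transport. With the CDS length trend removed and no block, 0 of the 63 passed in either line. Of all transcripts 27 passed in that fit in *Rps27-FLAG* and 8 in *Rps27l-FLAG*. With the clone as a block *Rps27-FLAG* had 23 higher and 15 lower, and *Rps27l-FLAG* 16 and 15. Over all transcripts that fit gave *Rps27-FLAG* 18.3% higher and 22.9% lower, and *Rps27l-FLAG* 1209 higher and 1919 lower of 10085, and the following groups have the same background. Among 14 deadenylation genes, to which the Tnrc6 proteins lead, *Rps27-FLAG* then had 3 higher and 6 lower, and *Rps27l-FLAG* 1 and 6. Among 10 of nuclear processing, *Rps27-FLAG* had 6 higher and 1 lower, and *Rps27l-FLAG* 5 and 0. The 19 of repression and decay had 8 and 2, and 3 and 2, in the same order. The 13 tested genes of dicing, loading and Argonaute partners had 5 and 3, and 6 and 3. The 5 of let-7 control had 0 and 2, and 0 and 3, and the 2 of export 1 and 1 in each line. Once the CDS length trend was removed as well, the deadenylation counts became 3 and 3 in *Rps27-FLAG*, and 2 and 4 in *Rps27l-FLAG*. Those of nuclear processing became 8 and 0, and 7 and 0. Repression and decay then had 11 and 1, and 9 and 0, and dicing, loading and Argonaute partners 6 and 3, and 6 and 1. The genes of let-7 control had 1 and 1, and 0 and 1, and those of export 0 and 0, and 1 and 1. The background of this last fit was 18.4% higher and 13.0% lower for *Rps27-FLAG*, and 14.7% and 8.05% for *Rps27l-FLAG*. Between the lines 0 of the 63 passed by edgeR, where 12 had an unadjusted p under 0.05. Of all transcripts 0.565% passed and 12.1% had such a p.

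**Figure D5:**
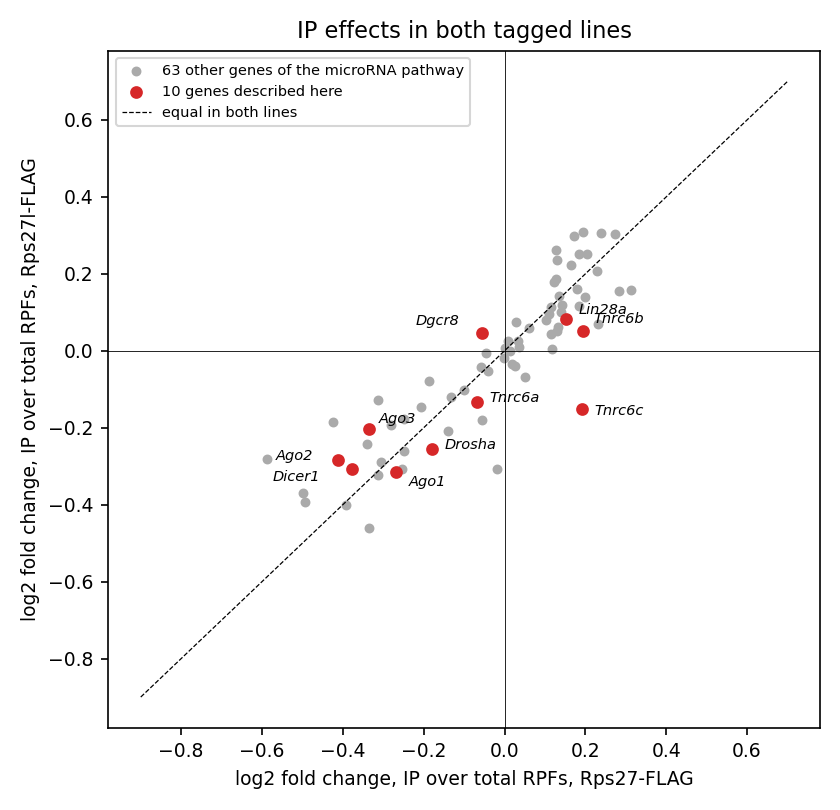
log2 fold change of IP over total RPFs in *Rps27l-FLAG* against that in *Rps27-FLAG* for the 10 genes (red) and 63 other genes of the pathway (grey), with a dashed line of equal values. *Tnrc6c*, at 0.19 and -0.15, lies apart from the dashed line, with the other 9 genes nearer to it.

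The transcripts whose log2 normalized CPM ran most like that of *Tnrc6c* over the 15 libraries were *Wbp2nl* (Pearson r = 0.79), *Zfp955a* (0.79), *Ccdc127* (0.78), *Samd4b* (0.78) and *Yrdc* (0.77). *Tnrc6a* came in place 471 with an r of 0.46 and *Tnrc6b* in place 2042 with 0.25. The libraries share batches, clones and the split of the clones by *Tet1*, so these coefficients only describe the 15 libraries.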

How the data were processed

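RPFs were measured in 15 libraries. Per the methods of the study, the authors trimmed adapters with cutadapt 2.4, removed rRNA, tRNA and snRNA, aligned reads with Bowtie2 2.3.4.3 to a GRCm38/mm10 transcriptome, collapsed duplicates by molecular identifier with UMI-tools 1.0.1, kept unique alignments, and deposited raw counts of A-site positions per transcript over the CDS without its first 15 and last 5 codons. Ambiguous fragments are therefore absent from these counts. Groups and replicates were taken from the sample labels. Counts of 3972152 to 8064166 per library were tested with edgeR 4.0.16 (R 4.3.3) by the quasi-likelihood F-test with Benjamini-Hochberg adjustment at 0.05, on transcripts with over 2 CPM in at least 14 libraries, without 13 mitochondrial transcripts, and with TMM factors computed for IP and total RPFs separately. The test of the difference between the lines had clone as a block and also required an absolute log2 fold change over 0.25, with *Tmod3* left out. Clone ratios had 0.5 counts added. The p-values rest on 3 clones a group, and precision is limited by that number and by counts per gene. In these edgeR fits the spread of a gene is drawn in part from all tested transcripts. The very small p-values with the block therefore do not measure the spread among 3 clones of that gene alone.

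IP and total RPFs of a replicate are from 1 clone and their deviations from the group means correlated (r from 0.47 to 0.79 in 6 clones). Equal numbers across lines mark libraries pooled during preparation (r from -0.16 to 0.71 over 9 pairs). The alternatives were voom with limma 3.58.1, DESeq2 1.42.0, other filters and scalings, a replicate block, removal of the CDS length trend (loess, span 0.5), and leaving out each replicate. The script was tested on simulated data. Genes named beyond the 10 were the 5 largest changes among called genes of the listed pathway and the 5 transcripts most correlated with *Tnrc6c*. The 10 genes, the pathway and marker lists and the tests were chosen with earlier results of these data known. Coordinates follow GENCODE M21 on GRCm38.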

Additional observations from a re-analysis of the deposited data

Results flagged for a closer look

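The IP effect of *Tnrc6c*, the log2 ratio of IP to total RPFs, differed between the tagged lines by -0.34 (*Rps27l-FLAG* minus *Rps27-FLAG*), with each *Rps27-FLAG* clone above 0 and each *Rps27l-FLAG* clone below it. The gene was chosen for this difference, which is therefore described and not tested here. With the CDS length trend removed, *Tnrc6c* was at 0.13 in *Rps27l-FLAG*, so the opposite signs were not kept. The difference between the lines was then -0.41.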

How the results depend on the processing

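Counts of calls moved with the block for the replicate number, which stands for the clone in the IP comparisons and for the pooled batch in the totals. In *Rps27-FLAG*, IP over total RPFs, 572 transcripts and 2 of the 10 genes passed, against 4154 and 7 with the block, 27 and 1 with the CDS length trend removed, 3162 and 5 with both, and 0 to 1817 transcripts and 0 to 3 genes when 1 replicate was left out. In *Rps27l-FLAG* 313 transcripts and 0 genes passed, against 3128 and 5 with the block, 8 and 0 with length removed, 2291 and 3 with both, and 0 to 319 transcripts without 1 replicate. Removing the length trend turned the sign of *Tnrc6a* (0.28 alone and 0.29 with the block), *Drosha* (0.093 and 0.092) and *Dgcr8* (0.078 and 0.084) in *Rps27-FLAG*, and of *Tnrc6a* (0.15 and 0.15) and *Tnrc6c* (0.13 and 0.13) in *Rps27l-FLAG*. *Tnrc6a* in *Rps27-FLAG* ran from -0.12 to 0.025 without 1 replicate, the highest without replicate 3. The difference between the lines gave 57 transcripts and 1 gene, against 0 and 0 with no replicate block, 11 transcripts by DESeq2, which set no adjusted p for any of the 10 genes and so gave no count of them, 28 transcripts with length removed and 150 with no limit on the fold change. The value of *Tnrc6c* stayed between -0.41 and -0.33 in 14 alternatives. Total RPFs gave 0 transcripts in each comparison. With the block they gave 1 (*Rps27-FLAG* against WT), 144 with 1 of the 10 genes (*Rps27l-FLAG* against WT) and 137 (*Rps27l-FLAG* against *Rps27-FLAG*). Leaving out 1 replicate gave 0 to 1 transcripts in the last 2 comparisons. Leaving out the 4 clones with low *Tet1* was chosen after seeing the data. It gave 19 transcripts and 0 genes for the difference between the lines, and for the totals 34, 408 with 2 genes and 293 with 1 gene, in the order above, and could not be fitted for the IP effect of *Rps27l-FLAG*, where it leaves 1 clone. Where the sources of these changes are not named by the setting itself, the cause was not tested. Over all alternatives except that without the 4 clones, 132 counts kept to within 1.5 times the reported count, 16 rose past that and 13 fell below it. The counts listed above for those alternatives are among these. Of 395 values of single genes 380 kept their sign and 15 did not, the latter being those above and 4 of the difference between the lines, in *Ago1* (0.11 without *Rps27-FLAG* replicate 3 and 0.025 without *Rps27l-FLAG* replicate 2) and *Ago3* (-0.08 without *Rps27l-FLAG* replicate 3 and -0.00097 without *Rps27-FLAG* replicate 2).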
